A study of Mus musculus with 18 samples.

Results

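*Zbtb24*, *Cdca7*, *Cdca7l*, *Hells* and *Dnmt3b* were followed in purified splenic B cells of mice. All but *Cdca7l* are the mouse counterparts of genes mutated in ICF syndrome (immunodeficiency, centromeric instability and facial anomalies), and *Cdca7l* is the paralogue of *Cdca7*. The 5 genes were taken by name from a table of 16545 genes, with earlier results of these data known, and each had a single row. RNA was sequenced from 18 libraries in 6 groups of 3. Cells of control mice and of mice with *Zbtb24* deleted in B cells (B-CKO) were taken at 0 h, 24 h and 48 h of LPS, which the sample labels call D0, D1 and D2. LPS, from the outer membrane of bacteria, drives mouse B cells into division through TLR4. By the methods of the study, B-CKO mice carried *Zbtb24* loxp/loxp together with 1 Cre allele that is active in the B lineage from early bone marrow stages on. Their littermate controls carried the same Cre allele with *Zbtb24* +/+, on a C57BL/6 background in both cases. The control genotype is given here as the methods state it. Each replicate was 1 mouse, and the age and sex of these mice were not given in the sources used here. The main fits did not pair libraries by replicate number, so their p-values measure the spread between libraries within groups. At 0 h part of that spread was shared by libraries of the same number in both genotypes. For changes with LPS, libraries taken to be of the same mouse were treated as independent. The deletion removes exon 2 alone, so transcripts of the other exons can still be counted.

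In outline, ZBTB24 is a zinc finger transcription factor that binds the *Cdca7* promoter and is needed for its expression. CDCA7 recruits HELLS, a remodeller of the SNF2 type, to nucleosomes, and the pair helps DNA methyltransferases to reach heterochromatic DNA. DNMT3B is a de novo DNA methyltransferase, and its loss in patients leaves satellite repeats near centromeres poorly methylated. CDCA7L, also known as R1, is a MYC-binding relative of CDCA7. Patients with ICF syndrome have B cells but few memory and plasma cells and little serum antibody, which is why these genes are of interest in activated B cells.

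The *Cdca7* promoter is shown because the comparison of genotypes turns on this gene. It is taken from RefSeq on GRCm38.p6, chr2:72475969-72476158, plus strand, and lies before every annotated exon. Its positions, -250 to -61, are counted from the transcript start on which the promoter window is set. That start is not the first base of the gene span given below. Capitals mark, in order, CAGGACCT, the core of the ZBTB24 motif, and GCGGGAAA, the reverse complement of the E2F form TTTCCCGC.
Cdca7 promoter: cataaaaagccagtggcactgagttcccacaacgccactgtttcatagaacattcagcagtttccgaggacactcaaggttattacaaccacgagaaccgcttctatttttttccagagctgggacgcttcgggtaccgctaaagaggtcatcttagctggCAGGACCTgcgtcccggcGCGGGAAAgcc
CAGGACCT began at position -89, and GCGGGAAA at -71. On either strand, CAGGACCT stood in 653 of 32851 promoter windows of 300 bases (1.99%), each from 250 bases before to 50 after a start. Of the 5 genes followed, *Cdca7* alone had it in its window. An E2F form (TTTCCCGC, TTTGGCGC, TTTCGCGC or TTTGCCGC, on either strand) stood in 2.26% of the windows, and among the 5 genes in those of *Cdca7* and *Hells*. The *Hells* stretch, at chr19:38930918-38930945 on the plus strand, lies wholly within annotated exons.
Hells window: accaccgggtTTTCCCGCgaaagagaag
A match of letters is a description of these windows and not of binding. Of 6 other genes that have been proposed as direct ZBTB24 targets, 5 had a window, and *Cdc40*, *Taf6* and *Camkmt* held CAGGACCT on at least 1 strand. One of the hits of each gene is shown, in stretches of 28 bases, in the gene's own direction, with the motif in capitals for comparison with *Cdca7*. They lie at chr10:40883287-40883314 (minus strand), chr5:138187223-138187250 (minus strand) and chr17:85090632-85090659 (plus strand). Unlike the *Cdca7* stretch, they hold bases of annotated exons, 25 in *Cdc40*, 4 in *Taf6* and 28 in *Camkmt*. AGGTCCTG is the reverse complement of CAGGACCT.
Cdc40 window: ttaatcaacgAGGTCCTGaaagttacaa
Taf6 window: tggcttctgcCAGGACCTactcctgtca
Camkmt window: cgggcgtcacAGGTCCTGacagggaaga

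Levels are given in FPKM, that is, mapped fragments scaled by the authors for transcript length and library size. Tests were made with limma on log2(FPKM + 1), so log2 differences understate the change of genes below a few FPKM, and adjusted p-values were taken over all genes tested, with 0.05 as the threshold. The table gives no fragment counts. From the steps between values near 0, which were whole multiples in 293 of 1643 genes examined (17.8%), the relative depth, a rough estimate, of the libraries was 0.874 to 0.917 at 0 h and 1.01 to 1.07 later, where 1 is their geometric mean. Replicates varied more at 0 h, with a median SD of log2(FPKM + 1) of 0.169 in control and 0.158 in B-CKO cells against 0.0545 to 0.0852 later. The B cell gene *Cd79a* lay between 641.54 and 2270.4 FPKM in every library. The summed level of 8 T cell markers was at most 12.15 FPKM, of 4 NK cell markers 15.91, of 8 myeloid markers 10.01 and of 4 erythroid markers 46.25, and each of these maxima was found at 0 h. In such bulk samples, fewer cells with a transcript and less of it per cell cannot be told apart.

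*Zbtb24* (gene ID 268294, chr10:41450358-41465582), the targeted gene, was the most abundant of the 5 genes in resting control cells and was lower in B-CKO cells at all 3 times. In control cells at 0 h the 3 libraries had 49.56, 49.62 and 37.05 FPKM, and in B-CKO cells 14.33, 10.53 and 12.57 FPKM. After 24 h of LPS, control libraries had 18.28, 18.77 and 15.68 FPKM and B-CKO libraries 11.66, 10.39 and 10.62 FPKM. After 48 h they had 13.42, 17.11 and 14.94 FPKM in control and 10.64, 9.23 and 11.34 FPKM in B-CKO cells. No B-CKO library reached a control library of the same time, and the gap was widest at 0 h, where control cells had the most *Zbtb24*. B-CKO cells had 27.5% of the control level at 0 h (95% interval 19.1 to 39.7%), 62.1% at 24 h (51.6 to 74.6%) and 68.7% at 48 h (53.1 to 89.0%). These percentages are ratios of geometric means of FPKM, n = 3 per group. In the GENCODE transcript used here, exon 2 (chr10:41451089-41452068) holds the translation start and makes up 980 of 2844 bases (34.5%), and the other exons 65.5%.

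The genotype difference of *Zbtb24* on the log2(FPKM + 1) scale was -1.78 (SE 0.16) at 0 h, -0.64 (SE 0.075) at 24 h and -0.50 (SE 0.10) at 48 h. The limma adjusted p-values were 0.12, 0.059 and 0.27, so that none passed the threshold over all genes, although the difference ranked second by p at 0 h. At 0 h no gene passed among 15641 (0% called), and 313 had an unadjusted p under 0.05. At this time the replicate numbers pair the libraries, and the block for the number alone gave an adjusted p of 0.69. When genes with a mean under 1 FPKM were left out, the adjusted p was 0.0476, and with the block as well 0.000423. For each time, *Zbtb24* was among the genes with all 3 B-CKO libraries below all 3 controls, which 1.94% of genes met at 0 h, 11.7% at 24 h and 6.24% at 48 h.

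**Figure D1:**
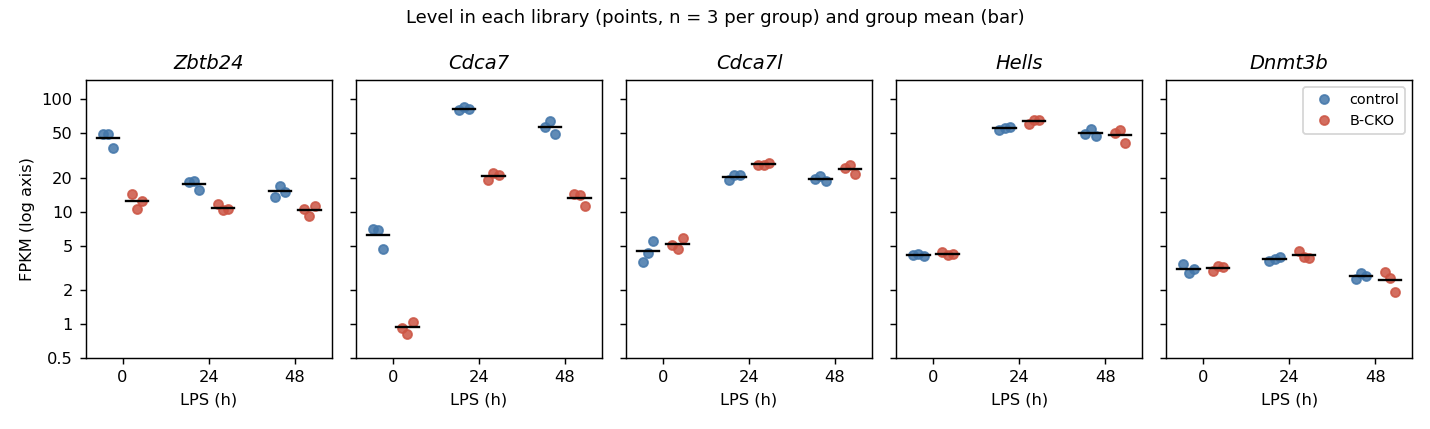
FPKM (log axis) of the 5 genes in each of 18 libraries by hours of LPS, with points for single libraries, bars for group means, blue for control and red for B-CKO. *Cdca7* points of the genotypes lie far apart at each time, *Zbtb24* points most of all at 0 h, and those of *Hells* overlap at 0 h and 48 h and those of *Dnmt3b* at all times.

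*Cdca7* (gene ID 66953, chr2:72476187-72486892) had the largest genotype difference of the 5 genes on the log2(FPKM + 1) scale at every time (-1.88 against -1.78 for *Zbtb24* at 0 h), and each B-CKO library stood below each control library. In resting cells it stood at 7, 6.91 and 4.67 FPKM in control and at 0.93, 0.82 and 1.05 FPKM in B-CKO libraries. At 24 h the control libraries had 80.02, 85.51 and 82.19 FPKM, and the B-CKO libraries 19.32, 22.11 and 21.18 FPKM. At 48 h they had 56.79, 64.62 and 49.56 FPKM in control and 14.53, 14.18 and 11.28 FPKM in B-CKO cells. The transcript was thus low in resting cells, abundant in stimulated control cells, and present in stimulated B-CKO cells above its resting control level. B-CKO cells held 15.2% of the control level at 0 h (95% interval 10.03 to 23.2%), 25.2% at 24 h (22.3 to 28.5%) and 23.4% at 48 h (17.2 to 31.8%).

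In the limma test *Cdca7* fell by 1.94 (SE 0.052, adjusted p = 3.56e-05) at 24 h and by 2.02 (SE 0.12, adjusted p = 0.00589) at 48 h on the log2(FPKM + 1) scale. At 24 h, 15 of 15104 genes passed (0.0993%), and at 48 h 7 of 15210 did (0.046%). It ranked second by p at both times, after *Ostc* at 24 h. At 0 h its difference was -1.88 (SE 0.17) with an adjusted p of 0.12, which the filter of 1 FPKM brought to 0.0476 and the filter with the replicate block to 0.000774. Without control replicate 1 at 48 h the adjusted p rose to 0.083, without B-CKO replicate 1 to 0.056 and without B-CKO replicate 2 to 0.069, with differences of -2.01, -2.08 and -2.06. With both libraries of number 1, 2 or 3 left out at this time it was 0.65, 0.26 and 0.058. At 24 h the call held without any single library, and was lost only without both libraries of number 3 (adjusted p = 0.10).

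*Cdca7l* (gene ID 217946, chr12:117843475-117878712) lay the other way, with more FPKM in B-CKO than in control cells after LPS. Its levels at 0 h were 3.58, 4.30 and 5.54 FPKM in control and 5.10, 4.65 and 5.85 FPKM in B-CKO libraries, which overlap. At 24 h they were 19.09, 21.26 and 21.31 FPKM in control and 26.05, 26.13 and 27.00 FPKM in B-CKO libraries. At 48 h they were 19.61, 20.74 and 18.69 FPKM in control and 24.57, 25.87 and 21.60 FPKM in B-CKO libraries. After stimulation each B-CKO library stood above each control library, as did 8.43% of genes at 24 h and 4.89% at 48 h. At 0 h, 1.92% of genes did so, *Cdca7l* not among them.

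The B-CKO level of *Cdca7l* was 129% of control at 24 h (95% interval 116 to 143%) and 122% at 48 h (103 to 144%), against 118% at 0 h (79.1 to 175%). On the log2 scale the difference was 0.35 (SE 0.047) at 24 h and 0.27 (SE 0.074) at 48 h. In the limma test it did not pass over all genes (adjusted p = 0.059 and 0.40, unadjusted p = 0.000183 and 0.00827). At 24 h it passed when genes under 1 FPKM were left out (adjusted p = 0.0077) and with a pseudocount of 0.1 (adjusted p = 0.047). The direction held in all 16 alternative fits at either time. Since the libraries of the genotypes did not overlap, only the rescaled fits (TPM and median ratio) could have turned it.

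**Figure D2:**
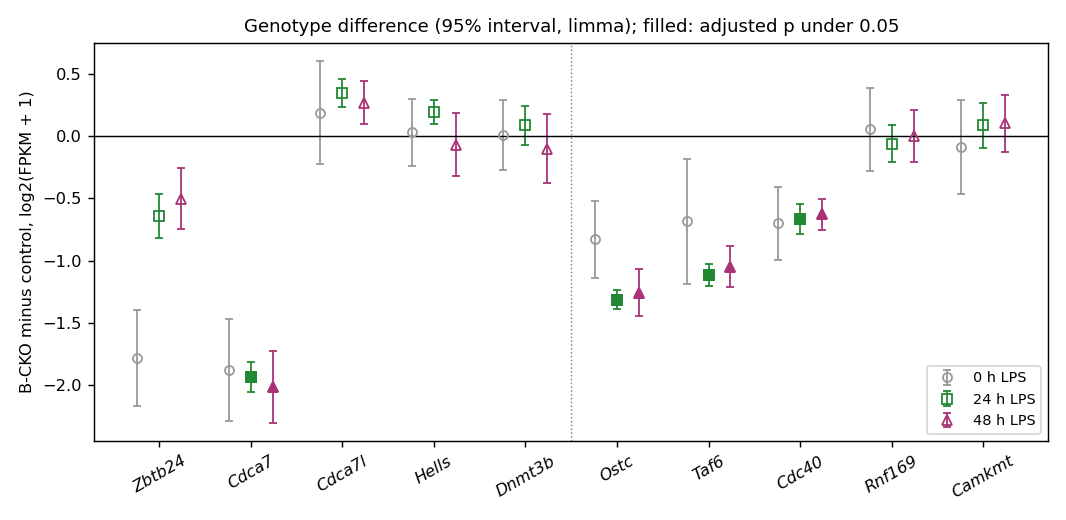
B-CKO minus control on the log2(FPKM + 1) scale for the 5 genes (left of the dotted line) and for other genes proposed as ZBTB24 targets (right), at 0 h (circles), 24 h (squares) and 48 h (triangles) of LPS. Bars are 95% intervals from limma with 3 libraries per group, and filled symbols have an adjusted p under 0.05. *Cdca7* lies near -2 at all times, whereas *Cdca7l* lies above 0 after LPS.

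Since both proteins belong to the same small family, their levels per length were set side by side. The ratio of *Cdca7* to *Cdca7l* FPKM was 0.843 to 1.96 in resting control libraries, 3.86 to 4.19 at 24 h and 2.65 to 3.12 at 48 h. In B-CKO libraries it was 0.176 to 0.182, 0.742 to 0.846 and 0.522 to 0.591 at the same times. After LPS, *Cdca7* was therefore the more abundant of the pair in every control library, and *Cdca7l* in every B-CKO library. The sum of both was 45.37 to 48.24 FPKM in B-CKO against 99.11 to 106.77 FPKM in control cells at 24 h, and the B-CKO mean was 45.8% of the control mean. It was 57.5% at 0 h and 48.7% at 48 h. At 24 h the B-CKO mean of *Cdca7* was 61.7 FPKM below control, while that of *Cdca7l* was 5.84 FPKM above it.

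*Hells* (gene ID 15201, chr19:38930262-38970470), the remodeller that works with CDCA7, had overlapping levels at rest and higher values in each B-CKO library at 24 h. At 0 h it had 4.14, 4.19 and 4.04 FPKM in control and 4.40, 4.14 and 4.17 FPKM in B-CKO libraries. At 24 h the levels were 53.63, 56.25 and 57.25 FPKM in control and 60.50, 65.50 and 65.65 FPKM in B-CKO cells, with no overlap. At this time 8.43% of genes had all 3 B-CKO libraries above all 3 controls. At 48 h the *Hells* levels were 49.01, 54.79 and 46.82 FPKM in control and 49.79, 53.63 and 40.81 FPKM in B-CKO cells, and overlapped again. The log2 difference was 0.03 (SE 0.11) at 0 h, 0.19 (SE 0.041) at 24 h and -0.07 (SE 0.11) at 48 h. None passed the limma test, with adjusted p-values of 1, 0.11 and 0.90, and at 24 h the difference passed with the filter of 1 FPKM (adjusted p = 0.038). B-CKO cells had 103% of the control level at 0 h (95% interval 96.6 to 109%), 115% at 24 h (105 to 126%) and 95.3% at 48 h (73.5 to 124%). At 48 h the sign turned to 0.044 without B-CKO replicate 3, the lowest library.

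The ratio of *Cdca7* to *Hells* FPKM was 1.16 to 1.69 in resting control cells, 1.44 to 1.52 at 24 h and 1.06 to 1.18 at 48 h. It was 0.198 to 0.252, 0.319 to 0.338 and 0.264 to 0.292 in B-CKO cells. Control cells therefore had more *Cdca7* than *Hells* per length in each library, and B-CKO cells less. In control cells this ratio did not leave the range of the resting libraries between 0 h and 24 h, although both levels rose more than 10-fold.

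**Figure D3:**
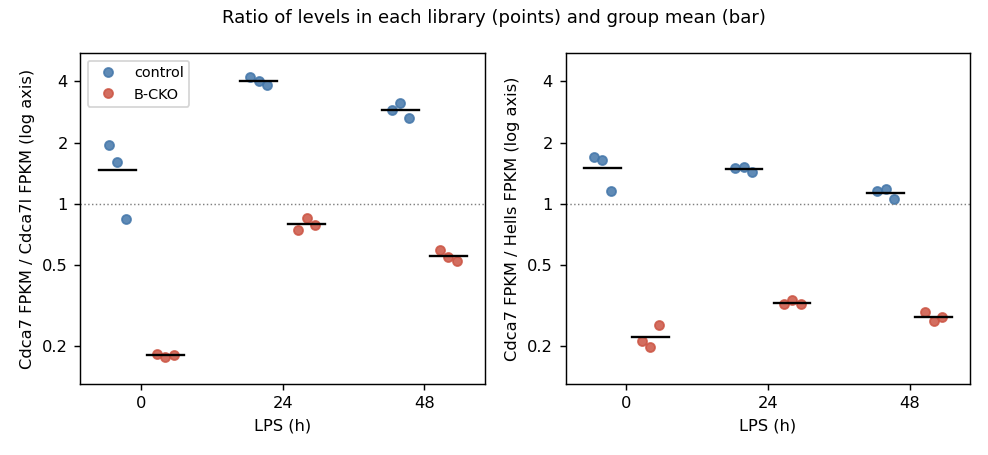
Ratio of *Cdca7* to *Cdca7l* (left) and of *Cdca7* to *Hells* (right) in each library, on log axes, with points for libraries, bars for means of 3, blue for control and red for B-CKO. The dotted line marks equal levels, which separates the genotypes at 24 h and 48 h in both plots and at all times in the right one.

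*Dnmt3b* (gene ID 13436, chr2:153649411-153687730), the de novo methyltransferase, was the least abundant of the 5 genes in all control groups and did not pass the test between genotypes at any time. Its levels were 3.40, 2.87 and 3.08 FPKM in control and 2.98, 3.26 and 3.19 FPKM in B-CKO cells at 0 h. At 24 h they were 3.63, 3.79 and 3.95 FPKM in control and 4.44, 3.97 and 3.88 FPKM in B-CKO cells. At 48 h they were 2.53, 2.85 and 2.65 FPKM in control and 2.90, 2.55 and 1.92 FPKM in B-CKO cells. The genotypes overlapped at each time. The log2 difference was 0.01 (SE 0.12), 0.09 (SE 0.065) and -0.10 (SE 0.12), and the adjusted p from limma was 1, 0.57 and 0.88. The B-CKO level was 101% of control at 0 h (95% interval 86.5 to 118%), 108% at 24 h (94.4 to 123%) and 90.6% at 48 h (63.7 to 129%). The sign at 48 h turned to 0.018 without B-CKO replicate 3, and at 0 h it turned without control replicate 2 (-0.033) or B-CKO replicate 2 (-0.0096).

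The 5 genes responded to LPS in different ways, and 57.4% of 15531 genes passed the test between 24 h and 0 h in control cells. *Hells* rose by 3.47 (SE 0.061) on the log2(FPKM + 1) scale, or 13.5-fold in FPKM (95% interval 12.7 to 14.4), and it had the second smallest p of all genes. *Cdca7* rose by 3.56 (SE 0.14), or 13.6-fold (9.34 to 19.7). *Cdca7l* rose by 1.99 (SE 0.14), or 4.66-fold (3.24 to 6.72). *Zbtb24* went the other way and fell by 1.31 (SE 0.14), to 38.9% of its resting level (28.5 to 53.2%). The limma adjusted p-values of these 4 changes were between 4.97e-06 and 0.000296. *Dnmt3b* differed by 0.22 (SE 0.095, adjusted p = 0.094) and did not pass. In resting control cells *Zbtb24* had 45.4 ± 7.24 FPKM (SD, n = 3), above the other 4 genes, which had between 3.12 and 6.19 FPKM on average. *Cdca7l* overlapped with both *Cdca7* and *Hells* in that group, and *Dnmt3b* lay below them. At 24 h the order was *Cdca7*, *Hells*, *Cdca7l*, *Zbtb24* and *Dnmt3b*. In that order each neighbour was separated in all 3 libraries (lowest *Cdca7l* 19.09 FPKM, highest *Zbtb24* 18.77 FPKM). At 48 h *Cdca7* (49.56 to 64.62 FPKM) and *Hells* (46.82 to 54.79 FPKM) overlapped.

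In B-CKO cells, 59.8% of 15551 genes passed between 24 h and 0 h. *Hells* rose by 3.63 (SE 0.063), *Cdca7* by 3.499 (SE 0.096) and *Cdca7l* by 2.15 (SE 0.088), with limma adjusted p-values between 2.24e-06 and 6.18e-06. As FPKM, *Cdca7* rose 22.4-fold (95% interval 17.9 to 28.2), from 0.933 ± 0.115 to 20.9 ± 1.42 FPKM (SD, n = 3). At 24 h the order in B-CKO cells was *Hells*, *Cdca7l*, *Cdca7*, *Zbtb24* and *Dnmt3b*, with no overlap between neighbours. *Dnmt3b* rose by 0.30 (SE 0.091, adjusted p = 0.029), but with the mouse number as a block the adjusted p was 0.082. It was 0.12, 0.089 and 0.080 without numbers 1, 2 and 3. *Zbtb24* differed by -0.17 (SE 0.12, adjusted p = 0.26). Rescaling to TPM moved the median of genes with at least 1 FPKM from 0.0171 to -0.165 in control and from 0.0072 to -0.173 in B-CKO cells, and the differences of *Zbtb24* (-0.34, adjusted p = 0.041) and *Dnmt3b* (0.19, adjusted p = 0.18) in B-CKO cells then changed sides of the threshold.

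Between 24 h and 48 h, 44.9% of 15178 genes passed in control and 45.7% of 15253 in B-CKO cells. *Cdca7* fell in both genotypes, by 0.53 (SE 0.090, adjusted p = 0.0030) in control and by 0.62 (SE 0.099, adjusted p = 0.0023) in B-CKO cells. *Dnmt3b* also fell in both, by 0.38 (SE 0.066, adjusted p = 0.0034) and 0.57 (SE 0.12, adjusted p = 0.0072), although in B-CKO cells the adjusted p was 0.061 without number 2. *Hells* fell by 0.41 (SE 0.097, adjusted p = 0.012) in B-CKO cells, with 0.079 without number 1, and differed by -0.15 (SE 0.060, adjusted p = 0.087) in control cells. *Cdca7l* differed by -0.06 and -0.13 and *Zbtb24* by -0.20 and -0.06 in control and B-CKO cells, and neither passed.

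Whether the genotype difference itself changed with time was tested over the 12 libraries of 2 times, with no gene called among 16182 for 0 h to 24 h (0%) or among 15844 for 24 h to 48 h (0%), and 467 and 1158 genes at an unadjusted p under 0.05. For *Zbtb24* the difference shrank by 1.14 on the log2 scale (SE 0.19, unadjusted p = 0.000117), the smallest p of the 0 h to 24 h test, with an adjusted p of 0.58. The 3 control numbers changed by -1.39, -1.36 and -1.19, and the 3 B-CKO numbers by -0.28, -0.02 and -0.22. The ranges did not overlap, although the change did not pass over all genes. The share of all genes with such separate ranges of change was not determined, so the separation does not set *Zbtb24* apart. For *Cdca7* the change of the difference was -0.06 (95% interval -0.44 to 0.33) with a pseudocount of 1 and 0.61 with a pseudocount of 0.1, its resting B-CKO level being 0.82 to 1.05 FPKM. For *Hells* it was 0.16 (SE 0.074) from 0 h to 24 h and -0.26 (SE 0.13) from 24 h to 48 h, with adjusted p-values of 1 and 0.70. For *Cdca7l* and *Dnmt3b* it lay between -0.19 and 0.16 in both tests, with adjusted p-values of at least 0.83.

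Over the 18 libraries, the profile of *Hells* on the log2(FPKM + 1) scale was nearest to those of *Mcm3*, *Mcm6*, *Mcm7*, *Trim37* and *Mcm4* (Pearson r 0.998 to 0.999, among 9996 genes compared). The MCM genes encode subunits of the replicative helicase. *Cdca7l* was nearest to *Cd36*, *Dnph1*, *Gtf2h5*, *Afg3l1* and *Prim2* (r 0.990 to 0.997), and *Cdca7* had *Marcksl1*, *Pxn*, *Nudt4* and *Raver1* among its nearest (r 0.889 to 0.906). Among the 5 genes nearest to *Zbtb24* were *Capn2*, *Pcp4* and *Igsf9* (r 0.774 to 0.834). *Dnmt3b* was nearest to *Ncdn*, *Trmt44*, *Otud4*, *Telo2* and *Trub1* (r 0.923 to 0.931). Among the 5 genes themselves, *Cdca7l* and *Hells* had an r of 0.986, *Cdca7* and *Hells* 0.834, *Cdca7* and *Cdca7l* 0.749, and *Zbtb24* and *Cdca7* -0.075. The points share the LPS response and the genotypes, so these correlations describe the 18 libraries and no more.

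**Figure D4:**
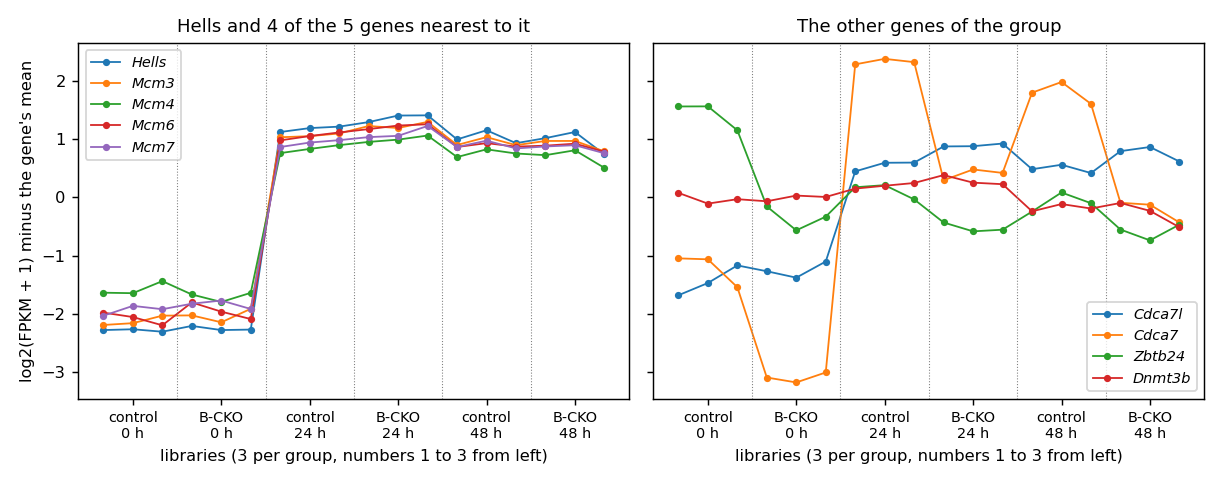
log2(FPKM + 1) minus each gene's mean over 18 libraries, ordered by hours of LPS and genotype. *Hells* and the MCM genes nearest to it (left) run together, with r of at least 0.998, and among the other genes (right) *Cdca7* has the largest mean difference between B-CKO and control libraries at each time.

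Beside these genes, lists of the pathway were examined. They were chosen with earlier results of these data known. Of 22 S phase and E2F-driven genes, 21 had higher values in B-CKO cells at 24 h, as did *Hells*, with a median difference of 0.17 against -0.0046 over all genes tested. None passed the limma test (smallest adjusted p = 0.099), as against 0.0993% of all genes. At 48 h, 19 of the 22 had lower values, with a median of -0.066 against -0.0055 over all genes, and none passed either. In both genotypes 21 of them rose and 1, *Cdt1*, fell from 0 h to 24 h, where 57.4% of all genes passed in control and 59.8% in B-CKO cells. The higher *Hells* values at 24 h thus stood beside higher values of S phase genes, and their part in the result was not tested.

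Of 19 other genes of DNA methylation (writers, readers and erasers), none passed between genotypes at 0 h, 24 h or 48 h, with medians of 0.025, -0.026 and -0.059. Over all genes 0%, 0.0993% and 0.046% passed, so a count of 0 does not set this list apart. The extremes were *Tdg* (-0.11) and *Uhrf1* (0.20) at 0 h, *Zbtb4* (-0.24) and *Uhrf1* (0.14) at 24 h, and *Tet2* (-0.20) and *Uhrf2* (0.22) at 48 h. UHRF1 recruits the maintenance methyltransferase DNMT1 to newly copied DNA. In control cells from 0 h to 24 h, 5 of the 19 rose and 9 fell, where 57.4% of all genes passed (4147 higher and 4768 lower of 15531). *Uhrf1* rose by 4.27 (SE 0.12) and *Dnmt1* by 1.97 (SE 0.12), whereas *Dnmt3a*, the other de novo enzyme, differed by 0.036 (SE 0.081, adjusted p = 0.73). The limma adjusted p-values of the first 2 were 5.64e-06 and 3.16e-05. *Hells* thus rose together with the maintenance genes, while of the de novo enzymes *Dnmt3b* passed in control cells only after median-ratio scaling (0.27, adjusted p = 0.031).

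Of 14 other SNF2-type remodellers, 11 end joining and class switch genes and 11 centromere and heterochromatin genes, none passed between genotypes at any time, with 13 of the 14 remodellers testable at 24 h and 48 h. At the shares of all genes called (0%, 0.0993% and 0.046%), such counts do not set the lists apart. The same held for the 8 testable genes of 15 germline genes that promoter methylation keeps silent, of which 10 were in the table. Their summed level was at most 1.56 FPKM in any library, and the ranges of the genotypes overlapped at each time.

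The list of 7 proposed ZBTB24 targets differed from the others in its counts. It includes *Cdca7*, and 4 of the 7 fell in the B-CKO at 24 h and 4 of the 6 testable ones at 48 h, where 0.0993% and 0.046% of all genes passed. Beside *Cdca7* these were *Ostc*, an oligosaccharyltransferase subunit, *Taf6*, a subunit of TFIID, and *Cdc40*, a splicing factor. *Ostc* fell by 1.31 and 1.26, *Taf6* by 1.12 and 1.05, and *Cdc40* by 0.67 and 0.63 at 24 h and 48 h, with limma adjusted p-values between 3.56e-05 and 0.025. *Rnf169* and *Camkmt* did not pass, with differences between -0.06 and 0.11 after LPS. Of these 2, *Camkmt* has the motif in its window, as do *Cdca7*, *Taf6* and *Cdc40*, and *Rnf169* has not. *Axin2* was at 0.05 FPKM or less on average in each group and was at 0 in every library at 48 h. The median of the list was -0.67 at 24 h and -0.84 at 48 h, against the medians over all genes given above.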

How the data were processed

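Splenic B cell RNA of 3 control and 3 B-CKO mice was sequenced at 3 times. The authors mapped reads to mm10 with bowtie2, used Cufflinks and RSEM, and deposited a table of 16545 genes in FPKM. The submitters' processing notes also name BWA and DESeq2. Versions and annotation are not given in the sources used here, and the labels and the methods name different instruments. Gene IDs were matched to RefSeq on GRCm38 for 16512 genes, and exons were read from GENCODE.

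From the FPKM, log2(FPKM + 1) was tested with limma 3.58.1 in R 4.3.3 (lmFit, eBayes with a trend), because the values are not counts and a count test could not be run. Genes at 0 in all libraries of a fit were left out. Each fit held only the groups compared, with Benjamini-Hochberg adjustment over all genes of the fit. Percentages of control are ratios of geometric means without a pseudocount, and their 95% intervals use the SD of log2 values pooled over both groups. The fits and the depth estimate were tested on simulated data. Figures were made in Python 3.11.15 with matplotlib 3.10.9.

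The 5 genes, the lists and the tests were chosen with earlier results of these data known. Named genes are the 5 genes, for each the 5 with the highest correlation, the genes of the lists that passed between genotypes, and the extremes of the methylation and target lists. Some genes that this rule names are not reported here.

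At 0 h, deviations from the group means of libraries with the same number correlated with r = 0.854, 0.468 and 0.789 across 9997 genes (mean of other pairs -0.342), so numbers pair the genotypes there. At 24 h r was 0.103, 0.20 and 0.091, and at 48 h -0.037, 0.22 and 0.23. Within a genotype, a number is taken as a mouse, since a replicate was 1 mouse. Alternatives were a pseudocount of 0.1, a filter of 1 FPKM, TPM, median-ratio scaling, the replicate block, the block with the filter, a single fit of 18 libraries, and leaving out replicates.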

Additional observations from a re-analysis of the deposited data

How the results depend on the processing

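Of 540 values of the 5 genes under alternatives, 491 kept their direction and side of the threshold. The number of genes called depended on the filter: with a mean of at least 1 FPKM it was 2, 388 and 29 at 0 h, 24 h and 48 h instead of 0, 15 and 7, and with the replicate block and that filter 22, 704 and 116. Fewer genes are then tested, and unadjusted limma p-values changed as well, at the same differences. In the blocked fit at 24 h, that of *Cdca7* was 1.95e-07 without the filter and 5.19e-11 with it. For *Zbtb24* the values were 0.000458 and 6.09e-06, and for *Dnmt3b* 0.28 and 0.22. The cause was not tested. The replicate block alone gave 5 genes at 24 h and 3 at 48 h, and a single fit of 18 libraries 25, 8 and 11. A pseudocount of 0.1 gave 46 at 24 h. Leaving out replicates gave 0 to 1, 0 to 8 and 0 to 6 genes. From 24 h to 48 h it gave 4496 to 5040 in control and 4148 to 5652 in B-CKO cells.

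At 0 h, *Zbtb24* (-1.78) and *Cdca7* (-1.88) passed with the filter, with the block and filter, and in the fit of 18 libraries. At 24 h, *Zbtb24* passed with a pseudocount of 0.1 (-0.68), TPM (-0.67), and the filter with or without the block (-0.64). *Cdca7l* passed with a pseudocount of 0.1 (0.36) and the filter with or without the block (0.35), and *Hells* with the filter with or without the block (0.19). At 48 h, *Zbtb24* (-0.50) and *Cdca7l* (0.27) passed with the block and filter. In control cells from 24 h to 48 h, *Hells* (-0.15) passed with the filter with or without the block and *Zbtb24* (-0.20) with both. *Dnmt3b* passed from 0 h to 24 h in control cells after median-ratio scaling (0.27). In B-CKO cells it did not pass with TPM (0.19) or the block (0.30), where *Zbtb24* passed with TPM (-0.34).

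Without replicates, the genotype difference of *Cdca7* was -1.98 to -1.88 at 24 h and -2.11 to -1.91 at 48 h. *Dnmt3b* was -0.053 to 0.088 at 0 h and -0.22 to 0.018 at 48 h, and *Hells* -0.15 to 0.044 at 48 h. From 24 h to 48 h, *Hells* was -0.21 to -0.082 in control and -0.48 to -0.28 in B-CKO cells, *Cdca7l* -0.11 to 0.0014 in control cells, and *Dnmt3b* -0.61 to -0.48 in B-CKO cells. *Dnmt3b* was 0.22 to 0.34 from 0 h to 24 h in B-CKO cells. The change of the *Cdca7* difference from 0 h to 24 h was 0.61 with a pseudocount of 0.1, 0.27 with TPM and -0.19 to 0.14 without replicates, and that of *Dnmt3b* -0.072 to 0.16. That test called 2 genes in the fit of 18 libraries and 0 to 1 without replicates, and the 24 h to 48 h test called 2 with the block and filter. FPKM carry no counts, so low levels such as *Cdca7* in resting B-CKO cells have no counting interval.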
